A study of Mus musculus with 34 samples.

Results

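Described here are 10 genes of the contractile machinery and energy supply of skeletal muscle, read from fractions of the mouse brain: Acta1, Ckm, Myh8, Tnnt3, Myl1, Mylpf, Tnnc2, Tnni2, Atp2a1 and Myh3. They are 10 of 20145 genes named on the array and were matched by the RefSeq transcript that each probe names, which gave 14 probes of 55681. The genes were selected on log2 levels in these same fractions, some of them having been seen to be highest in coronal fraction 6 and horizontal fraction 5, so their levels in those 2 fractions are a description and were not tested.

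The brains of 3 male C57BL/6J mice, all 3 days old and with no treatment, were each cut along a single axis, into 15 coronal fractions (mouse 1), 8 horizontal fractions (mouse 2) and 11 sagittal fractions (mouse 3). A fraction stands for 500 µm of tissue, and the RNA of each was hybridized to 1 one-colour Agilent array. Each of sagittal fractions 1 and 11 pooled 2 cut fractions. With 1 array a fraction and 1 mouse an axis, no level has a replicate, and the axis cannot be told apart from the mouse.

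Skeletal muscle shortens when myosin heads of the thick filament pull on actin of the thin filament. Troponin and tropomyosin on the thin filament set this in motion when calcium binds troponin C, and a calcium pump of the sarcoplasmic reticulum ends it. Fast and slow fibers use different isoforms of most of these proteins, and fibers before and around birth use embryonic and perinatal myosin heavy chains. Brain tissue itself has no sarcomeres.

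Promoters of Tnnc2 and Myl1, the genes with the largest rises, and of the actin gene for comparison, are shown so that these members can be seen side by side. The capitals mark CANNTG, the E-box that the myogenic regulators MyoD and myogenin are known to bind, which reads the same on both strands. Each run is the 250 bases before a RefSeq start site of the gene, on GRCm38.p6, 5′ to 3′ on the strand of the gene. The Myl1 window lies inside the RefSeq span of the gene, so it precedes the start of a shorter transcript. Tnnc2 lies on the minus strand at chr2:164779735-164779984, Myl1 on the minus strand at chr1:66945057-66945306 and Acta1 on the minus strand at chr8:123894776-123895025.
Tnnc2: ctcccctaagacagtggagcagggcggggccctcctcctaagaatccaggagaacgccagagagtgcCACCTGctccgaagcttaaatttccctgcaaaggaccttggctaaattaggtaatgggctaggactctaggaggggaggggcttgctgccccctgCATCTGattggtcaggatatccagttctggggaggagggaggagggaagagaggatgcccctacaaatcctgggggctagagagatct
Myl1: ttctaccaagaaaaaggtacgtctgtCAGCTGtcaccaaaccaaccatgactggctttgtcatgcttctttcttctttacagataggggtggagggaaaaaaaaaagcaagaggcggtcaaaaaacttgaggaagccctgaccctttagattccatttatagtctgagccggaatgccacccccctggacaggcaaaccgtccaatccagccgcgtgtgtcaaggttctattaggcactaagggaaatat
Acta1: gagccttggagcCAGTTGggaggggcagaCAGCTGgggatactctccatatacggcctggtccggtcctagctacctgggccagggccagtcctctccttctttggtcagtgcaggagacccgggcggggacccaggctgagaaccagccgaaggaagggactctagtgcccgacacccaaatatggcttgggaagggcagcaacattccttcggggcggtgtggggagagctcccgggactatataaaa

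The Tnnc2 and Acta1 windows each hold 2 E-boxes and the Myl1 window holds 1. RefSeq promoters were found for 8 of the 10 genes, and each of the 8 windows had at least 1 E-box, a motif present in 66.2% of 32851 promoters of the same length. The window of Atp2a1, which had no peak, also held 1. A CArG box, the site of serum response factor, was found only in Acta1 among the 8, and in 1.47% of all promoters.

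Of the 10 genes, 6 had a peak shared by coronal fraction 6 and horizontal fraction 5: Ckm, Myh8, Tnnt3, Myl1, Tnnc2 and Tnni2. A probe was given a shared peak when it was well above background in both fractions, had its highest level of the series in each, and lay at least 2-fold above the median of the other fractions of that series. By the same rule 43 of 29441 probes detected in both fractions had it, which is 0.146% (0.144% of named probes); the genes were selected on this pattern, so nothing is read from the difference. Taken singly, 7 of the 10 genes were highest in coronal fraction 6, with 3.53% of all probes detected there, and all 7 by at least 2-fold, with 1.92% of all probes. In horizontal fraction 5 the highest level fell for 8 genes, with 9.03% of all probes, and for 6 by at least 2-fold, with 3.29%. A peak in both without a minimum rise was seen for 7 genes and 0.323% of probes. Acta1 was highest in both fractions too, but under 2-fold in the horizontal one. Atp2a1 and Myh3 were detected without the shared peak, and the only Mylpf probe was detected in no fraction. For a probe seen in few fractions that median is itself a signal not well above background, so its rise is then given as a bound where its size is stated. Levels below are log2 signals less the 75th percentile of the array, so a level of 0 means that a probe was as bright as that percentile. Tissue with fewer muscle cells and tissue with less of these RNAs per cell cannot be told apart in such fractions.

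Tnnc2, the calcium-binding troponin C of fast fibers, had the largest rise of the 10 genes. Its level was 2.50 in coronal fraction 6, against -3.53 to -0.70 (median -2.59) in the other 14 coronal fractions, a 34.1-fold difference from their median. In the horizontal series it was 1.17 in fraction 5, 0.72 in fraction 7 and 0.16 in fraction 6, then -1.63 in fraction 8. Horizontal fractions 1 to 4 were lower still, at -3.13, -2.96, -3.74 and -4.63. All 11 sagittal fractions were low and close together, between -3.83 and -3.23 (median -3.53). Thus the high levels of the horizontal series formed a block of 3 neighbouring fractions, while the coronal peak was a single fraction whose neighbours were at -3.34 and -1.11. Coronal fraction 1, at the end of the series, was the second highest at -0.70.

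Tnni2 is the inhibitory troponin I of fast fibers, which holds the filament off until calcium arrives. It reached 2.44 in coronal fraction 6, against -1.57 to -0.05 (median -1.09) elsewhere in the series, an 11.5-fold rise. Its horizontal levels were 0.96 in fraction 5, 0.53 in fraction 7, 0.32 in fraction 6 and -2.07 to -0.57 in the other 5, with a rise of 3.60-fold in fraction 5. The sagittal levels spanned -1.70 to -1.21. Tnnc2 and Tnni2 followed each other through the coronal and horizontal series, with Pearson's r of 0.987 over 15 coronal and 0.986 over 8 horizontal fractions. Over all 34 fractions r was 0.976, and it was 0.968 over the 32 fractions left without the peak ones; in the flat sagittal series it was 0.45. These points share arrays and neighbouring tissue, so r is given as a description.

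Tnnt3, the tropomyosin-binding troponin T of fast fibers, has 2 probes for different transcripts, and both had the shared peak. Probe A_51_P345699 was at -0.59 in coronal fraction 6 and at -3.48 to -0.85 (median -2.20) in the others. In the horizontal series it was at -1.19 in fraction 5 and -3.10 to -1.70 elsewhere. Probe A_55_P2088375 gave -0.17 and -0.84 in the same fractions, and the probes ran together at r = 0.973 over the 34 fractions. The coronal lead was small: fraction 4 came within 0.25 of fraction 6 by the first probe and within 0.39 by the second, against an SD of 0.0593 to 0.113 between repeated spots of a probe on 1 array. Tnnt3 also had its highest sagittal level in fraction 6, at -1.0 and -0.70, with -2.05 and -1.87 next in fraction 7. Tnni2 and Tnnt3 lie on chromosome 7 with 1 annotated gene between them.

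**Figure D1:**
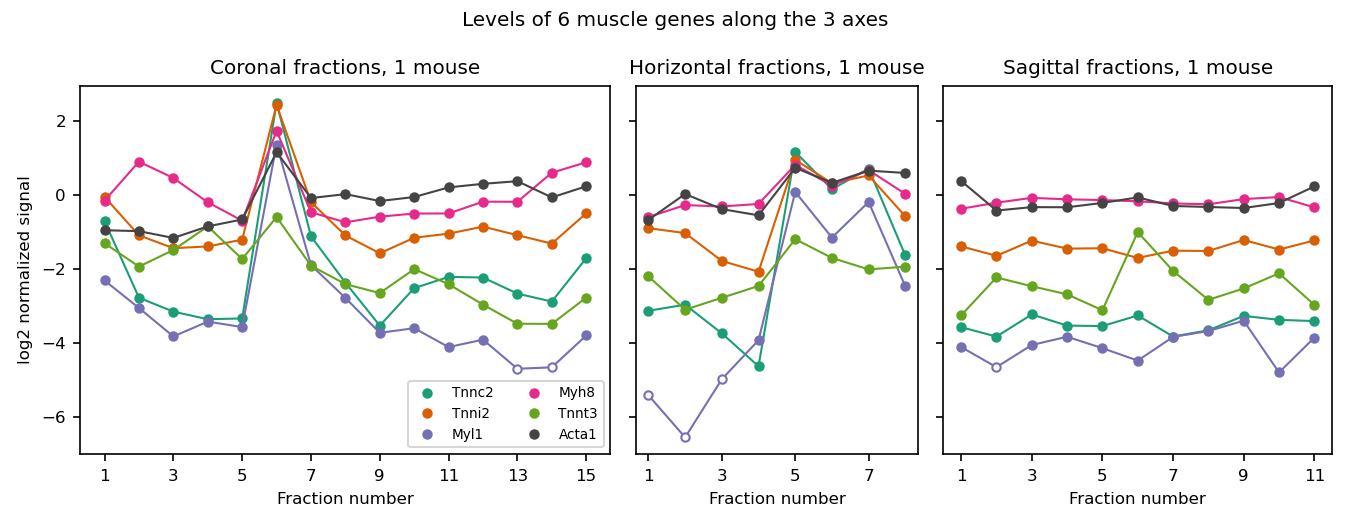
Level of 6 genes (1 probe each) in every fraction, as log2 signal less the array's 75th percentile, along the coronal, horizontal and sagittal series. Open circles are signals not well above background. All 6 genes are highest in coronal fraction 6 and in horizontal fraction 5, and only Tnnt3 of them is highest in sagittal fraction 6.

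Myl1, the essential light chain of fast myosin, rose almost as far as Tnnc2. Probe A_51_P416858 was at 1.37 in coronal fraction 6 and at -4.70 to -1.90 in the other 14, of which fractions 13 and 14 were not well above background. Its horizontal levels were 0.09 in fraction 5, -0.19 in fraction 7, -1.15 in fraction 6 and -2.47 in fraction 8, with fraction 4 at -3.92. Horizontal fractions 1, 2 and 3 were not well above background, and fraction 5 exceeded them at least 34.6-fold. Such a bound sets the bright level against the mean of the dim arrays, each taken at its lowest well-measured signal or at the probe's own, whichever is higher.

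The other Myl1 probe, A_52_P273120, names another transcript and was detected in only 4 of 34 fractions: coronal 6 (-3.44), horizontal 5 (-4.0), horizontal 7 (-4.64) and sagittal 6 (-3.17). Its level exceeded that of the 14 other coronal fractions at least 2.80-fold in fraction 6, and that of the 6 horizontal fractions without detected signal at least 2.37-fold in fraction 5. Its sagittal signal in fraction 6 was the highest of the 34. The first Myl1 probe was at -4.48 there, below its sagittal median of -4.06, so the probes differed at that place, and their r over the sagittal series was -0.31. Mylpf, the regulatory light chain of fast myosin, has 1 probe and was well above background in 0 of 34 fractions.

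Myh8 encodes the perinatal myosin heavy chain, the form in use around birth. Its level by probe A_51_P143296 was 1.74 in coronal fraction 6, followed by 0.91 in fraction 2, 0.89 in fraction 15 and 0.61 in fraction 14, with a lowest level of -0.73 and a median of -0.19 over the 14. In the horizontal series it was 0.82 in fraction 5 and 0.68 in fraction 7, a lead of 0.14. The sagittal levels lay between -0.37 and -0.05. The rises were 3.80-fold and 2.08-fold, so the horizontal one was just inside the 2-fold limit, as was that of the Tnnt3 probe A_51_P345699 at 2.01-fold; Acta1, at 1.63-fold, was the nearest member outside. The other Myh8 probe, A_55_P2120161, was not well above background in any fraction.

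Myh3, the embryonic myosin heavy chain, had a pattern of its own. Its coronal levels by probe A_55_P2066440 were highest in fractions 8 (-1.60) and 6 (-1.63) and lowest in fraction 15, the only one at background. By probe A_55_P2083406 they were highest in fraction 9 (-1.86), with fraction 6 at -2.08. In the horizontal series both probes were highest in fraction 2, at -0.69 and -0.92, and next in fraction 3. The sagittal levels were highest at both ends, as the sagittal test shows. Both probes ran together at r = 0.947 over 34 fractions. Myh3 and Myh8 lie on chromosome 11 with 6 annotated genes between them, and their levels ran together less than those of Tnnc2 and Tnni2, with r of -0.31 and -0.30 for the 2 Myh3 probes.

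Acta1, the actin of the skeletal thin filament, was detected in all 34 fractions. Its coronal level was 1.16 in fraction 6 and -1.16 to 0.38 (median -0.07) in the others, a 2.35-fold rise. Coronal fractions 1 to 5 were all lower, at -1.16 to -0.66, than fractions 7 to 15, at -0.16 to 0.38. In the horizontal series it was 0.74 in fraction 5, 0.66 in fraction 7, 0.60 in fraction 8 and 0.33 in fraction 6, so that fraction 5 led fraction 7 by only 0.08, about the SD of repeated spots. In the sagittal series the ends were highest, with 0.38 in fraction 1 and 0.24 in fraction 11.

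Ckm, the muscle creatine kinase that refills ATP, was detected in 4 fractions: coronal 6 at -3.06, and horizontal 5, 7 and 6 at -4.08, -4.64 and -4.85. The horizontal 3 are the ones in which Tnnc2, Tnni2 and Myl1 were highest. The level of horizontal fraction 5 exceeded the 5 fractions without detected signal at least 2.21-fold, and no sagittal fraction had any.

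Atp2a1, the calcium pump SERCA1 of fast fibers, was detected in all 34 fractions and varied little. Its coronal levels ran from -3.51 to -2.47 with fraction 6 at -2.72, its sagittal levels from -3.01 to -2.51. In the horizontal series fraction 5 was highest at -2.32, only 0.06 above fraction 4. Of all named genes, the one whose levels were most like it over the 34 fractions was Atp2a2, which encodes the pump of heart, slow muscle and brain, with r = 0.866.

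**Figure D2:**
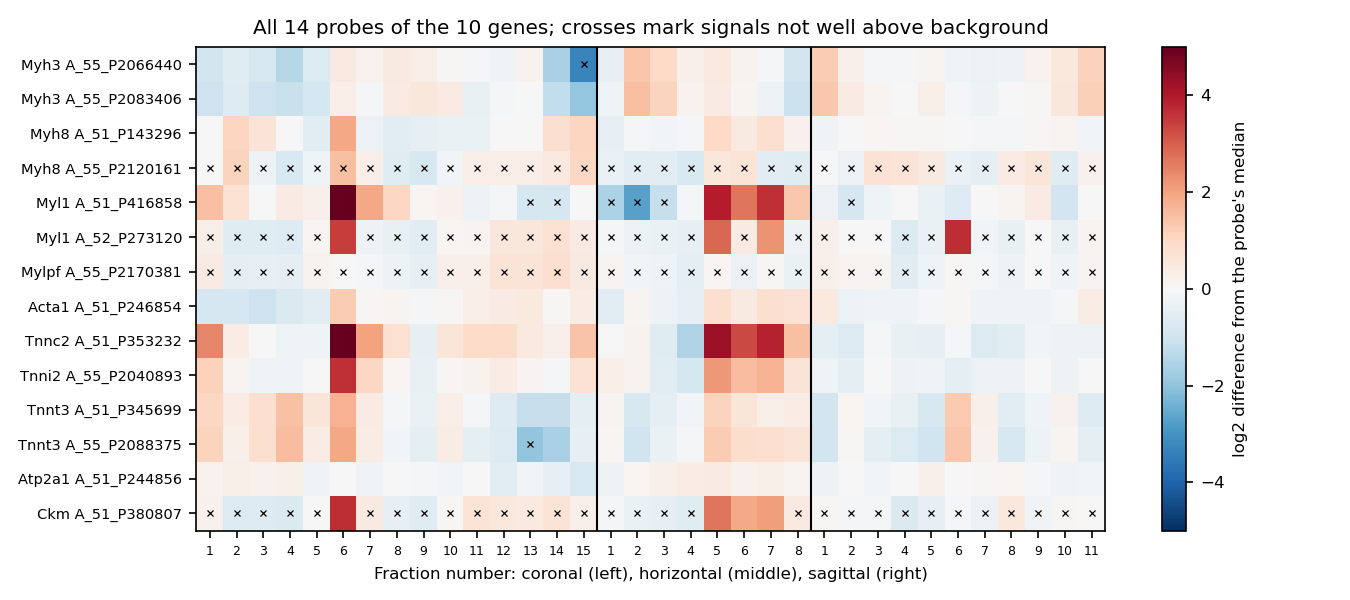
All 14 probes (rows) in the 34 fractions (columns), coloured by the log2 difference from the probe's own median, with the scale ending at 5 on both sides. Crosses are signals not well above background. The columns of coronal fraction 6 and horizontal fractions 5 to 7 are red for Tnnc2, Tnni2, Myl1 probe A_51_P416858 and Ckm. Myl1 probe A_52_P273120 has a cross in horizontal fraction 6. The rows of Mylpf and of Myh8 probe A_55_P2120161 hold crosses throughout.

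At least 1 probe was well above background in all 34 fractions for 7 of the 10 genes: Acta1, Myh8, Tnnt3, Tnnc2, Tnni2, Atp2a1 and Myh3. For Acta1, Tnnc2, Tnni2 and Atp2a1 this held for every probe of the gene. Counted by probe it was 7 of 14, where 45.6% of the probes of the whole array were detected in all 34 fractions, so the members' share was close to the background. Of those 25396 probes, 4 had the shared peak (0.0158%), and all 4 were of these genes: Tnnc2, Tnni2, Myh8 and Tnnt3. The genes were selected on this pattern, so nothing is read from that count. Myl1 and Ckm were detected in fewer fractions, and Mylpf in none.

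The peaks were compared with fractions of the same array slide, since coronal fraction 6 shared slide 2 with 7 other coronal fractions and horizontal fraction 5 shared slide 1 with 5 others. Against these alone Tnnc2 rose by 5.28 and 2.80 on the log2 scale, Tnni2 by 3.53 and 1.53, and Myl1 (A_51_P416858) by 4.42 and 2.55. Ckm was detected in 0 of the 7 other coronal fractions of slide 2 and in 2 of the 5 other horizontal fractions of slide 1, so that its rise has no exact size. Myh8 rose by 1.93 but by only 0.79 in the horizontal series, and the Tnnt3 probes by 1.14 and 1.56 but by 0.82 and 0.63, so neither gene kept the 2-fold limit. Both stayed highest in both fractions of their slides. Coronal fraction 6 had 34355 spots well above background, within the series' 29598 to 36406, and horizontal fraction 5 had 33371, the lowest of the horizontal 33371 to 35237. Its 75th percentile, the value each level is scaled by, was the highest of the horizontal series (9.11, against 8.66 for the lowest, as log2 signal), while that of coronal fraction 6 was 8.81, within 8.07 to 9.18. The part of this in the horizontal levels was not tested.

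More muscle genes shared the peak. A wider list of 102 muscle genes had 99 with a probe. It was put together from textbook knowledge with earlier results of these data known, so its counts are a description. Outside the 10 genes, 67 were detected in both fractions, and 6 of these had the shared peak: Mb, Ttn, Myoz2, Tcap, Csrp3 and Sln. Of all named probes detected in both, 0.144% had it. Detection was asked in the very fractions that define the peak, so a dim probe could enter only by being high there. Myoz2 entered that way in both series, and Ttn and Csrp3 in the coronal series. The median rises at the end of this paragraph carry the same filter. A further 5, Myh1, Myh2, Myom1, Tnnt1 and Chrna1, were highest in both fractions without a 2-fold rise in each. In the horizontal series Tnnt1 led the next fraction by only 0.0009 and Myom1 by 0.0031. Both leads are below the SD of repeated spots, which was at least 0.0593, so these 2 are ties there. With no minimum rise, 0.323% of all probes detected in both were highest in both. Over the 82 probes of the wider list outside the 10 genes that were detected in both fractions, the median rise was 0.33 in coronal fraction 6 and 0.12 in horizontal fraction 5, against -0.03 and -0.03 over all 29441 probes and 1.90 and 1.11 over the 12 detected probes of the 10 genes.

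Genes of the Z-disc and titin gave 4 of the 6. Tcap, the telethonin cap of titin, was at -0.42 in coronal fraction 6, 11.9-fold above the median of the others, and at -1.98 in horizontal fraction 5, 5.11-fold above. Ttn, titin itself, has 4 probes, of which only A_55_P2153021 had the shared peak; it was detected in coronal fraction 6 (-3.06) and horizontal fractions 5 (-4.41) and 7 (-4.84). Of the others, A_52_P454295 was detected in coronal fraction 6 alone, A_55_P2153031 in coronal fraction 2 alone (-4.78), and A_55_P2424042 in 0 fractions. The bounds of the rise by A_55_P2153021 were at least 3.64-fold in coronal fraction 6 over the other 14 and at least 1.78-fold in horizontal fraction 5 over 6 without detected signal. Myoz2, a calcineurin-binding Z-disc protein of slow and heart muscle, was detected in coronal fraction 6 (-3.81) and horizontal fraction 5 (-4.26) only, at least 2.16-fold and 1.97-fold above the others. Csrp3, the muscle LIM protein, reached -4.26 and -3.59, with bounds of 1.58-fold and 3.11-fold. It was also detected in horizontal fractions 2 (-4.28) and 6 (-5.15) and in sagittal fractions 4 and 5. For Ttn, Myoz2 and Csrp3 the bound was thus under 2-fold in 1 of the fractions, and the 2-fold rise rests on signals that were not well above background elsewhere.

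Mb and Sln made up the rest. Mb, the oxygen store myoglobin, was at -2.16 in coronal fraction 6 and at -2.92 in horizontal fraction 5, leading the next fraction by 2.07 and 1.93. It was detected in 10 fractions and was also highest in sagittal fraction 6, at -4.65. Sln, sarcolipin, a small inhibitor of the calcium pump, was at -0.72 and -1.84 and rose 4.35-fold and 2.42-fold.

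Together the 8 probes of the 10 genes and the 6 of the wider list made 14 probes with the shared peak. For 13 of them the second-highest horizontal fraction was well above background, and it was fraction 7 for 8 probes and fraction 6 for 3. The second-highest coronal fraction could be read for 9 probes, and fraction 1, the most frequent, held it for 3. The highest sagittal fraction could be read for 11 probes and was 6 for 4 of them, namely both Tnnt3 probes, Myl1 probe A_52_P273120 and Mb. Which end of the brain carries fraction 1 is not stated in the labels, and the fractions were not matched to anatomical regions.

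**Figure D3:**
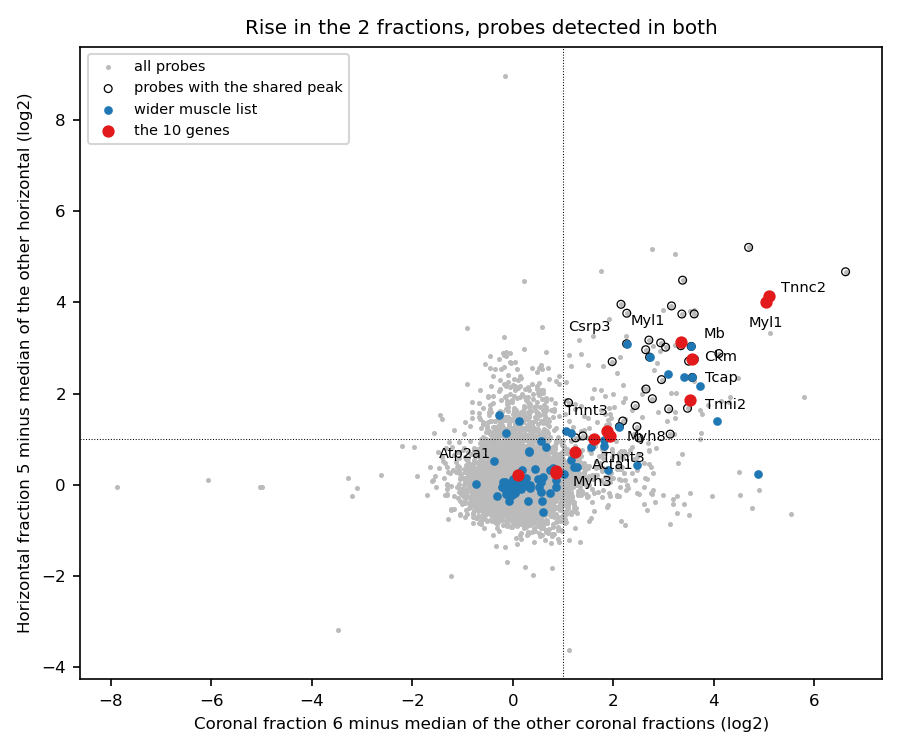
Rise in coronal fraction 6 (horizontal axis) against rise in horizontal fraction 5 (vertical axis), each the log2 level less the median of the other fractions of the series, for the 29441 probes detected in both. Red points are the 10 genes, blue points the wider muscle list, black rings the 43 probes with the shared peak, and dotted lines the 2-fold limit. Probes seen in few fractions are set against signals not well above background. Tnnc2 and Myl1 lie at 5.09 and 5.03 on the horizontal axis, while Atp2a1 lies at 0.11.

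Genes of fast as well as of slow fibers and heart lacked the shared peak, and no difference between fiber types was tested. Of fast fibers, Myh4, a myosin heavy chain, was highest in coronal fraction 13 and horizontal fraction 2, and Actn3, an actinin of the Z-disc, in coronal fraction 3 and horizontal fraction 6. Tnnt1, the slow troponin T, was highest in both fractions, in the horizontal one by only 0.0009, and rose by only 0.74 and 0.32. Tnnc1, the slow troponin C, was highest in coronal fraction 4 and horizontal fraction 5, with rises of 0.33 and 0.71 in the peak fractions. Tnni1, the slow troponin I, was highest in coronal fraction 2 and horizontal fraction 7. Myl2 was highest in coronal fraction 6, with a rise of 1.16, but in horizontal fraction 2. Myh7 was highest in coronal fraction 12 and horizontal fraction 8. Some came near the pattern: Cox8b, a muscle subunit of cytochrome oxidase, and Actc1, the cardiac actin, were highest in coronal fraction 1 and horizontal fraction 5. The isoforms named here and Cox8b were picked out after their values were seen. Of the 20 myogenic regulators and satellite cell genes, 10 were detected in both fractions and 0 had the shared peak. That is close to the background, since 0.146% of all probes detected in both had it. Myod1 was detected in 0 fractions and Myog in 4.

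Genes outside the muscle lists were among the 43 probes too. They covered 25 named genes, of which 12 were in the muscle lists, and 15 probes had no name. Foxa2, a transcription factor of the floor plate and of gut epithelium, has 2 probes with the shared peak. Probe A_55_P2134236 was at 0.75 in coronal fraction 6 and -0.44 in horizontal fraction 5, at least 44.2-fold and 25.0-fold above the 9 coronal and 5 horizontal fractions without detected signal. Its lead over the next fraction was 0.69 and 0.70. By both probes Foxa2 was also highest in sagittal fraction 6, at 0.03 and -2.60. Cav3, the caveolin of muscle cells, was at -2.91 and -3.51, at least 3.55-fold and 3.29-fold above the fractions without detected signal; it was detected in 7 fractions, 0 of them sagittal. Dmd, the dystrophin gene, rose by 1.39 and 1.07. Of the 29 probes outside the muscle lists, 15 were detected in 4 fractions or fewer. The remaining named genes were Olfr370, Olfr251, Trim75, Cxcl13, Pigb, Tcaf3, Pth2, Fam71f1, Agbl2 and Dupd1.

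Markers of other tissues were read in the same fractions from 13 lists with 105 genes. Of the 77 genes detected in both, 0 had their highest level in both fractions, and so 0 had the shared peak. Over all probes detected in both, 0.323% were highest in both and 0.146% had the shared peak. A count of 0 is thus close to the background, and nothing is read from it. The wider-list genes outside the 10, summed over those detected anywhere, stood at 1.06-fold the median of the other coronal fractions in fraction 6. In horizontal fraction 5 their sum stood at 0.99-fold. Such a sum adds signals that are not logged, so bright genes weigh most. Tpm3 had a coronal median level of 6.71 by probe A_55_P2090209. Tcap, the brightest in coronal fraction 6 of the 6 genes with the shared peak, reached -0.42. The median rise over the list's probes was 0.33 and 0.12. The sum of the 10 genes, which were chosen for high levels in these fractions and cannot stand for muscle genes at large, was 6.03-fold the median of the other coronal fractions in fraction 6 (19.3 against 2.40 to 4.39, where 1 is the array's 75th percentile) and 2.77-fold in horizontal fraction 5 (9.23 against 2.49 to 7.48). Schwann cell genes summed to 1.73-fold and 0.80-fold, and sensory ganglion genes to 1.84-fold and 0.97-fold. The skin and epithelium list summed to 0.85-fold and 2.00-fold, with Krt8, Krt18 and Epcam highest in horizontal fraction 5 by rises of 1.90, 1.80 and 2.31. These 3 genes were picked out after their values were seen, and the rest of the list was not highest there. Krt10 changed by -0.27 and -0.15 by its probes, and Krt5 by -0.05 by probe A_51_P186856. Dsp rose by 0.85 by probe A_51_P101460. Krt14 and Krt4 were not detected in horizontal fraction 5. Bone genes stood at 1.36-fold and 1.41-fold, cartilage genes at 1.07-fold and 1.12-fold, and heart genes at 1.13-fold and 0.91-fold. All 8 genes of the neuron list and all 10 of the glia list were detected in both fractions, at 1.09-fold and 0.96-fold and at 0.95-fold and 1.00-fold. The part of these tissues in the muscle levels was not tested.

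**Figure D4:**
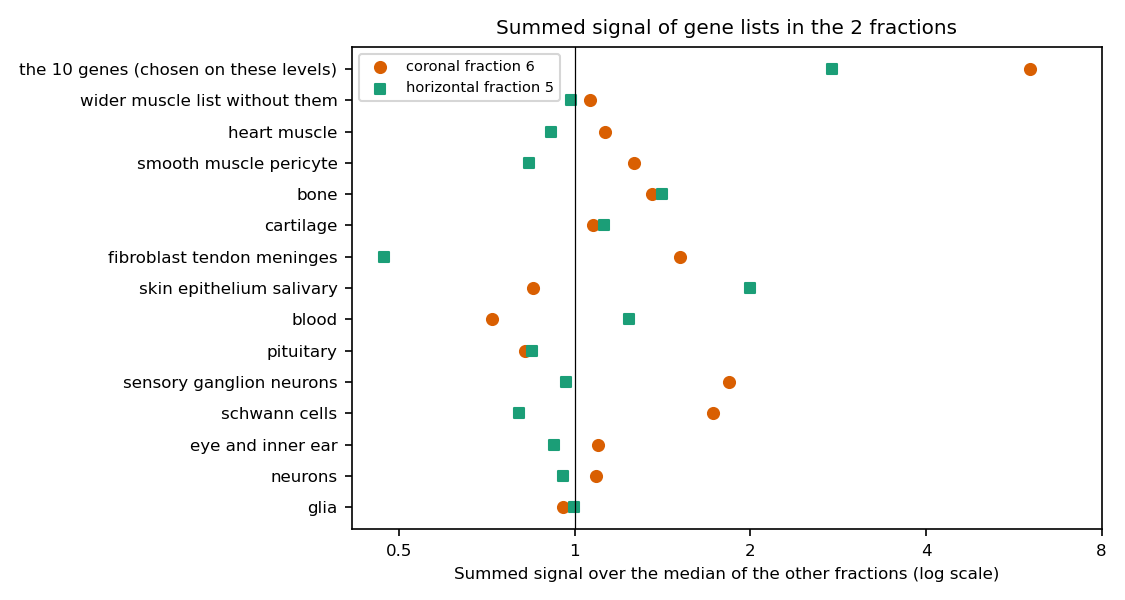
Summed signal of each gene list in coronal fraction 6 (circles) and horizontal fraction 5 (squares), as a ratio to the median of the other fractions of the same series, on a log axis. The 10 genes, which were chosen on these levels, stand at 6.03 and 2.77. The wider muscle list without them stands at 1.06 and 0.99, and the 13 lists of other tissues between 0.47 and 2.00. Bright genes weigh most in each sum.

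The sagittal series was not used to choose the shared peak, and change with the distance from its middle was tested with limma over 33044 probes detected in at least 3 sagittal fractions. The middle was assumed to lie in fraction 6 and the sides were treated as repeats of each other, neither of which the labels state, and all fractions are of 1 mouse. Of the 10 probes of these genes that entered, 3 passed an adjusted p of 0.05, against 29.6% of all probes, so the members' share was close to the background. The 2 Myh3 probes were higher away from the middle, a direction that 19.2% of all probes showed, and Atp2a1 was lower, as were 10.4%.

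Myh3 by probe A_55_P2066440 was at -0.78 and -0.92 in fractions 1 and 11, at -1.79 and -1.53 in fractions 2 and 10, and between -2.36 and -1.89 in fractions 3 to 9. Its slope was 0.27 ± 0.05 (SE) log2 units a fraction (limma, n = 11 fractions, adjusted p = 0.0042). By probe A_55_P2083406 the ends were at -1.06 and -1.24 and fraction 6 at -2.48, with a slope of 0.26 ± 0.05 (limma, adjusted p = 0.0054). The rise toward the ends was mostly in fractions 1 and 11, the pooled ones. Fraction 1 was on slide 3 and fractions 10 and 11 on slide 5, so distance, pooling and slide cannot be told apart at the ends. Without fractions 1 and 11 the slopes were 0.14 and 0.13 (limma, adjusted p = 0.093 and 0.12). With the slide as a block they were 0.12 and 0.11 (limma, adjusted p = 0.22 and 0.26). Within slide 4, which carried fractions 2 to 9, they were 0.10 and 0.09 (limma, adjusted p = 0.25 and 0.30).

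Atp2a1 had a slope of -0.07 ± 0.02 (limma, adjusted p = 0.027), with -3.01 and -2.89 in the end fractions and -2.73 in fraction 6. This call was lost when fraction 1, 5 or 11 was left out, with adjusted p up to 0.090 (limma), when the array's median was the scale (limma, adjusted p = 0.30) and with the slide as a block (limma, adjusted p = 0.43). The other 7 probes did not pass, Tnnt3 among them, whose levels stood out in fraction 6 alone (slopes of -0.19 ± 0.10 and -0.16 ± 0.12; limma, adjusted p = 0.17 and 0.33). Without fraction 5 the first Tnnt3 probe passed (limma, adjusted p = 0.046).

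In the wider list outside the 10 genes, 30 of 79 probes (25 of 64 genes) passed, which is 38.0% against 29.6% of all probes. Of these, 20 were higher away from the middle and 10 lower. Neb, the ruler of the thin filament, had a slope of 0.37 by probe A_55_P2116978 (limma, adjusted p = 6.8e-05), and Myl3, the light chain of slow and ventricular myosin, one of 0.36 (limma, adjusted p = 7.2e-05). Tcap, which shares the peak, was higher away from the middle as well, at 0.30 (limma, adjusted p = 8.4e-04). Mybpc1, a myosin-binding protein of slow fibers, fell with distance by 0.47 and 0.58 by its probes (limma, adjusted p = 2.7e-04 and 0.0016). Pax7, a factor of muscle satellite cells that the midbrain also uses, fell by 1.03 a fraction (limma, adjusted p = 4.4e-04). With the slide as a block, 15 of the 30 probes still passed, and 2337 of all 33044 probes passed in that setting. Among the 15 were those of Neb (A_55_P2116978), Myl3, Tcap, Mybpc1 and Pax7 given here (limma, adjusted p = 0.0043, 0.0052, 0.029, 0.0017 and 0.0099 for the Mybpc1 probes, and 0.021). The other Neb probe, A_55_P2116973, passed without the block (limma, adjusted p = 0.0078) but not with it (limma, adjusted p = 0.11).

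**Figure D5:**
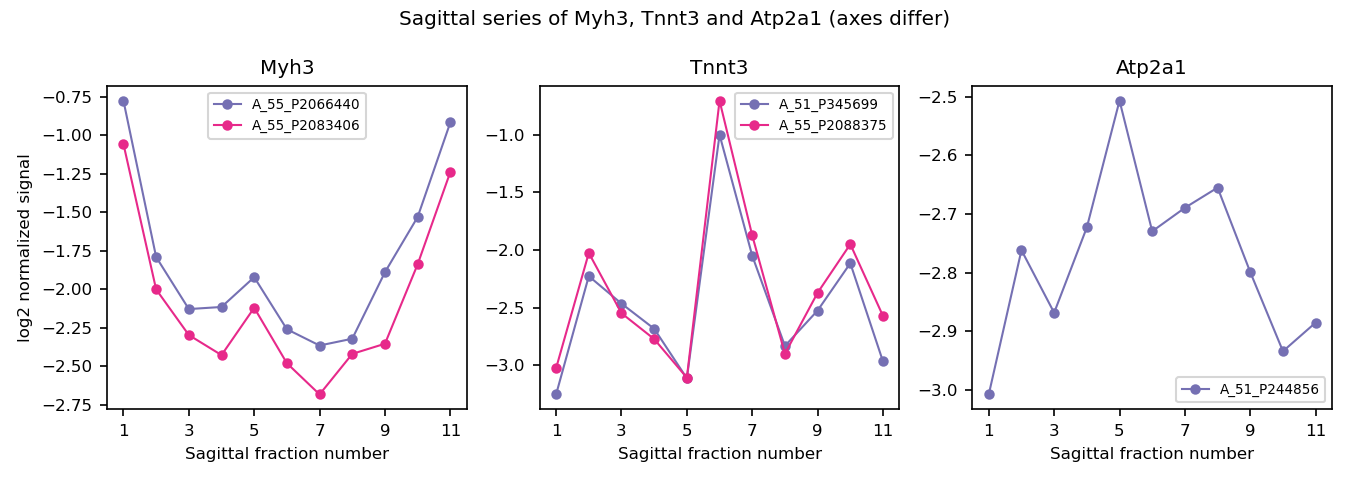
Level (log2 signal less the array's 75th percentile) in the 11 sagittal fractions of Myh3 and Tnnt3, by 2 probes each, and of Atp2a1 by 1, with a vertical axis of its own for each gene. Myh3 is highest in fractions 1 and 11, Tnnt3 in fraction 6 at -1.0 and -0.70, and Atp2a1 spans only 0.50 in all.

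Likeness of level over the 34 fractions was measured with Pearson's r against 34186 probes detected in every series, with 0.85 as the limit for similarly expressed transcripts (SET). Tnnc2 had 2 such probes, Tnni2 and Myl1 (r = 0.976 and 0.861), followed by Cox8b at 0.776 and Mb at 0.713. Tnni2 had 1, Tnnc2, and its next genes were Myl1 at 0.846, Cox8b at 0.787 and Tcap at 0.710. The nearest of Acta1 were Tcap (0.733) and Sln (0.713) and those of Myh8 were Mybpc1 (0.697), Tesk2 (0.681) and Tnni2 (0.659), so neither gene had a SET. Tnnt3 was nearest to Mb among other named genes, at 0.804. The SET of Myh3 were the largest, 15 probes for A_55_P2066440 and 8 for A_55_P2083406, and the genes nearest to the latter included Cldn3 (0.872), Rasl10a (0.861), Crhr1 (0.855) and Sobp (0.847), of which none is in the muscle lists. Atp2a1 had 2, Atp2a2 and Gpc5 (0.860). All these r have n = 34 fractions of 3 mice and rest in part on differences between the series.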

How the data were processed

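RNA of 34 brain fractions was measured on Agilent SurePrint G3 Mouse GE arrays. The authors processed the scans with Agilent Feature Extraction 10.10.1.1 and deposited each array's output, of which the background-subtracted intensity and the detection flags were used. A log2 table of 43199 probes was deposited as well, and 99.9% of its values lay within 0.02 of those here after 1 constant per array. Spots of a probe were averaged without outlier spots, and the log2 of the array's 75th percentile was taken from their log2 mean. Detection needed a well-above-background flag on most of the spots. Of 55681 probes, 26582 were named through RefSeq (GRCm38.p6). The array files use another build, so no coordinates are given but those of the promoter windows. No replicates exist, and the number of arrays limits the precision.

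The sagittal test used limma 3.58.1 in R 4.3.3 (lmFit, eBayes, two-sided, Benjamini-Hochberg over 33044 probes), and the rest Python 3.11.15, numpy 2.4.6 and pandas 2.3.3. The p-values measure only the spread between fractions of 1 mouse. On simulated data the distance test recovered 127 of 200 planted slopes of 0.2 with 8 false calls among 33044 probes. That simulation drew independent noise for each fraction, with no likeness of neighbouring fractions and no difference between slides. Its false calls therefore do not show how often the distance test errs on these data. The peak rule recovered 200 of 200 with 0 false calls among 29441. Its simulation planted 4-fold rises, capped the spread of each probe and took every probe as detected. It therefore cannot show how often the rule errs on these data. The members, the wider list and the marker lists were chosen with earlier results of these data known. Named were the 10 genes, wider-list and other genes with the shared peak, the 5 genes nearest to each member detected on all arrays, and wider-list genes past the sagittal threshold, of which those described are examples; some genes that this rule names are not reported here. Alternatives were other scalings, normexp background correction (offset 50, on the median spot signal), the authors' table, other detection flags and limits, slides and single fractions left out; the comparison within slides and the slide as a block were chosen after seeing the data.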

Additional observations from a re-analysis of the deposited data

Results flagged for a closer look

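The horizontal levels of 18 probes, the 12 of the 10 genes that were detected in the series and the 6 of wider-list genes with the shared peak, were searched for a fraction far from the others by Dixon's rule for 8 values, by which chance picks about 1 in 20. It picked 1: Atp2a1 in horizontal fraction 1, at -2.99, whose gap to the next level of -2.63 was 0.528 of the whole range; the limit for 8 values is just below this. Fraction 5, the peak of the other genes, was picked for none of the 18.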

How the results depend on the processing

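The 6 genes with the shared peak remained under quantile normalization, the authors' table, the laxer detection flag, no detection requirement and scaling on the probes detected everywhere. The array's median as the scale lowered the median rise in horizontal fraction 5 from -0.03 to -0.12 over all probes detected in both fractions. Myh8 then fell under the limit (0.83). Without slide 5, and within the slides, 4 of the 6 were left (Ckm, Myl1, Tnnc2 and Tnni2), Ckm against fractions mostly without detected signal. The normexp correction left 3 (Myl1, Tnnc2 and Tnni2) and 7 probes in all. Of the 4 wider-list genes it left, only Tcap lies outside the 10. A 4-fold limit left 3 (Ckm, Myl1 and Tnnc2) and 26 probes. Ckm passed it only against signals not well above background, as its bounds were 3.63-fold (coronal) and 2.21-fold (horizontal). The count of all probes was 72 with the laxer flag or no detection requirement and 95 with no minimum rise. Asking detection of every probe of a gene lowered the genes detected everywhere from 7 to 4.

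The sagittal test called 9796 probes, of which 64.8% were higher away from the middle, 12517 (82.4%) with the array's median and 8303 (54.7%) with normexp. It called 4197 with mirror pair means, 2192 within slide 4, 3642 without the pooled end fractions, 2337 with the slide as a block, and 6671 to 10104 with 1 fraction left out. Of the 3 member calls, none was left within slide 4, without the end fractions or with the slide as a block, and only Myh3 probe A_55_P2066440 with mirror pair means. Atp2a1 kept its call in 10 of 21 alternatives. Similarly expressed probes numbered 32 over the members, 13 by Spearman's rho and 21 with series means removed. No paired analysis was possible because a fraction number is a position on a different axis of a different mouse. The causes of these changes were not tested.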
